A study of Mus musculus with 2 samples.

Results

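Thrombospondins and a set of other matricellular proteins were described here by their transcript levels in the developing ovary of mice carrying the Gata4ki allele. The members were named as Thbs1, Thbs2, Thbs3, Thbs4, Comp, Sparc, Sparcl1, Tnc, Postn and Spp1, and a probe set was taken where the platform annotation gave exactly 1 gene symbol equal to a member. This gave 15 probe sets of 9 genes, out of 34945 probe sets and 18193 genes with 1 symbol on the array. Spp1 matched no probe set by this rule and has no value here. The family was chosen by the mutant over wild-type signal ratios of Thbs2, which had been seen to be higher on all its probe sets, so those ratios are a description and support nothing.

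The tissue was the gonad-mesonephros complex, which is the fetal gonad still joined to the transient kidney beside it, from XX mouse embryos at E12.5, where E stands for embryonic day. The control group was wild type, with no strain stated, and the mutant group was Gata4ki/ki on C57Bl/6. Gata4ki is a germline knock-in that weakens the contact of the transcription factor GATA4 with its FOG cofactors in every cell that makes GATA4, and the comparison asks which genes depend on that complex. Each group was 1 oligonucleotide array holding RNA pooled from 6 pairs of complexes, so no p-value, SD or test between the groups exists, and every ratio below describes these 2 arrays.

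Matricellular proteins are secreted into the extracellular matrix, where they act on cell surface receptors, growth factors and proteases more than as structural scaffold. Thbs1 and Thbs2 form trimers and carry type 1 repeats that bind the receptor CD36, while Thbs3, Thbs4 and Comp form pentamers without them. Thbs2 is known for restraining blood vessel growth and for aiding the clearance of matrix metalloproteinases. In the fetal gonad, vessels and stromal cells that enter from the mesonephric side help to shape the organ, and matrix proteins of this kind are made mainly by stromal, vascular and muscle cells.

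Thrombospondin genes with the higher signal in the mutant were Thbs2, Thbs1 and Thbs4, the last of which was not called 2-fold apart. No upstream sequence was available for Thbs1. The upstream sequences of Thbs2 and Thbs4 are shown with that of Thbs3, whose signals were close on both arrays. Each is the 250 bases before the annotated RefSeq start on assembly GRCm38.p6, read 5′ to 3′ on the gene's strand. Capitals mark matches on either strand to CCAAT, to TATAAA and to GGGCGG, the letters of the CCAAT box, the TATA box and the GC box.
Thbs2 upstream, chr17:14694263-14694512, minus strand: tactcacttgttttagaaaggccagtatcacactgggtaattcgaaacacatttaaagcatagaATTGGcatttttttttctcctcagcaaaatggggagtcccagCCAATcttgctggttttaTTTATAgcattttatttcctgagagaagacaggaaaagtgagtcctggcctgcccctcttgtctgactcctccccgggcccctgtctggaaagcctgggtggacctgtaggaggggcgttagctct
Thbs4 upstream, chr13:92794819-92795068, minus strand: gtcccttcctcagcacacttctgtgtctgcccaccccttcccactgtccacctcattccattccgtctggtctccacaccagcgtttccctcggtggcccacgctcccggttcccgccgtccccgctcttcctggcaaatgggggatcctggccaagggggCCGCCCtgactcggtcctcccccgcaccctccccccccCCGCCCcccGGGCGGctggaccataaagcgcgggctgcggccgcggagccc
Thbs3 upstream, chr3:89214930-89215179, plus strand: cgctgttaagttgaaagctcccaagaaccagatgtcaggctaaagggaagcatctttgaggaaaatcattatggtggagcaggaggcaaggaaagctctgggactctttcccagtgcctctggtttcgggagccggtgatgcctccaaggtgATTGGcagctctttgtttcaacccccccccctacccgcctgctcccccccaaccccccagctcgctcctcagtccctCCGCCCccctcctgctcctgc
For GATA factors the letters AGATAA or their variant AGATAG, and likewise TGATAA or its variant TGATAG, were searched on both strands, and none of the 3 windows held them, which says only that these letters are not in these 250 bases. Among 32851 windows of the same length, 26.5% held at least 1 GATA match, 33.8% CCAAT, 12.4% TATAAA and 32.7% GGGCGG. The Thbs2 window held CCAAT at 2 places and TATAAA at 1 place, read on the opposite strand 126 to 121 bases before the start. Thbs3 held 1 CCAAT and 1 GGGCGG match, and Thbs4 held 3 GGGCGG matches. The windows also differed in base composition, with 46.8% G or C in Thbs2, 58.8% in Thbs3 and 70.8% in Thbs4. Of the 10 windows listed for 7 member genes, 1 window of Spp1, the gene of the secreted phosphoprotein osteopontin, held GATA letters, at 2 places. A match is a description of the letters and not of a binding site.

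Signals are MAS5 values per probe set in arbitrary units on a linear scale, and levels are not compared between genes. A floor was set at the median signal over both arrays, 24.0, and lower values were raised to it before log2 was taken. A probe set was called measured where at least 1 array lay above the floor, and where the other did not, the ratio is a bound. Sums over a list add the deposited signals at the brightest probe set of each gene, those under the floor included. The brightest genes weigh most in such a sum. Of the 15 member probe sets 12 were measured, 10 of them on both arrays and 2 as bounds, and they covered 8 genes. The remaining 3 probe sets lay under the floor on both arrays.

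Thbs2 stood apart from the other members, with all 3 of its probe sets at least 2-fold higher in the mutant. Probe set 1422571_at gave 42.1 on the wild-type array and 253.8 on the mutant array, a 6.03-fold difference and a log2 ratio of 2.59. Probe set 1447862_x_at had 66.8 and 232.9, a log2 ratio of 1.80. Probe set 1450663_at had 24.6 and 93.1, a log2 ratio of 1.92, with the wild-type signal just above the floor. On all 3 the mutant array was high and the wild-type array low. With the floor raised to the 60th percentile, 1422571_at and 1450663_at were known only as bounds, 2.39 or higher and 0.94 or higher. Among 21238 measured probe sets ordered from the highest ratio down, the 3 Thbs2 probe sets, in the order given, ranked 5, 21 and 20.

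The spread between probe sets of like brightness gives the only scale of noise that this design allows, and it is not the spread between embryos. The robust SD of the log2 ratio was 0.38 among probe sets with a mean signal under 100, 0.22 in the class of 100 to 400 and 0.13 in the class over 400. In the class of 100 to 400, which holds 1422571_at and 1447862_x_at, 2-fold or higher ratios were found for 0.37% of 7569 measured probe sets. In the class under 100, which holds 1450663_at, the share was 1.54% of 8516. Of the 2182 genes with at least 3 measured probe sets, 2 genes, or 0.0917%, had all of them at least 2-fold higher, namely Thbs2 and Fcgr2b, an inhibitory Fc receptor. Since Thbs2 was chosen for its ratio, nothing is read from these shares about it.

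**Figure D1:**
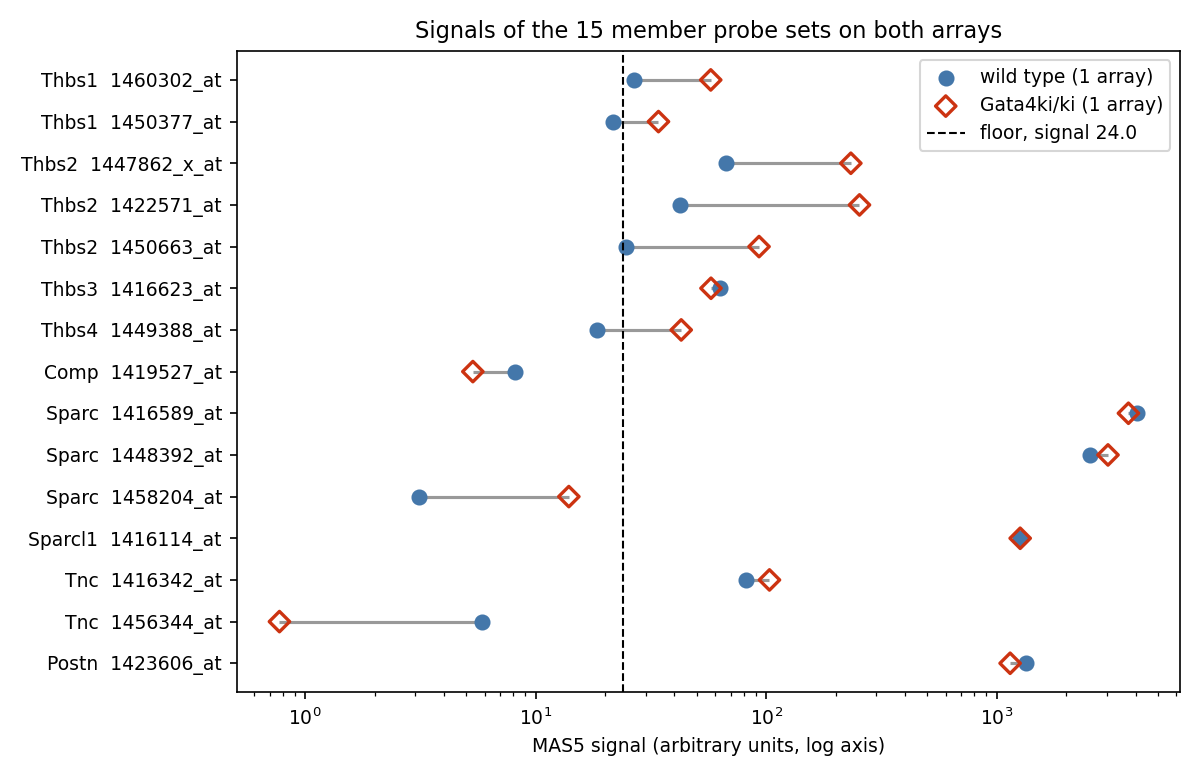
Signal of each of the 15 member probe sets in arbitrary units on a log axis, with filled circles for the wild-type array, open diamonds for the Gata4ki/ki array and a dashed line at the floor of 24.0. The 3 Thbs2 probe sets run from 24.6 to 66.8 in wild type and from 93.1 to 253.8 in the mutant, while the symbols of Sparcl1 and Thbs3 lie close together.

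The other thrombospondin that forms trimers, Thbs1, an inhibitor of vessel growth that also activates latent TGF-beta and is abundant in platelets, was at least 2-fold higher on 1 of its probe sets only. Probe set 1460302_at gave 26.7 on the wild-type array and 57.4 on the mutant array, a log2 ratio of 1.10. Probe set 1450377_at had 21.7 and 34.1, at least 1.42-fold higher, with wild type under the floor. Both are dim, where the robust SD was 0.38, and the mutant was the higher array on both. The ratio of 1460302_at was 0.78 with a pseudocount of 16 in place of the floor and was only bounded, at 0.24 or higher, with the floor at the 60th percentile. A further probe set, 1421811_at, is annotated to both Thbs1 and Pald1 and is therefore no member; its signals were 117.3 and 166.9, with a log2 ratio of 0.51.

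Platelet markers are given beside Thbs1, since platelets are rich in it. Of 8 listed platelet and megakaryocyte genes 7 were on the array and 5 were measured, 2 of these, Ppbp and Treml1, at least 2-fold higher and none 2-fold lower, beside 0.846% and 0.537% of all measured genes, with a median log2 ratio of 0.65. Pf4, the platelet chemokine, had signals of 356.9 and 561.9, and Gp1bb, part of the platelet adhesion receptor, had 33.7 and 44.3, and neither reached 2-fold. Ppbp, another platelet chemokine, had 111.7 and 224.1. Treml1, a platelet receptor, was at least 2.13-fold higher, with 5.78 and 51.3, whereas Itga2b, the platelet integrin, had 78.3 and 72.6, and Gp9 and Gp6 were not above the floor, with 23.5 and 19.1 and with 18.7 and 7.50. The signals summed over the 7 genes were 628.6 for wild type against 980.7 for the mutant. Their part in the Thbs1 values was not tested.

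Among the pentamer-forming thrombospondins none was called 2-fold apart. Thbs4, a thrombospondin of muscle, tendon and nervous tissue, gave 18.5 on the wild-type array and 42.8 on the mutant array, at least 1.78-fold higher. The wild-type array was under the floor, and with no floor the log2 ratio was 1.21. Thbs3, best known from cartilage and bone, had 62.9 and 57.6, a log2 ratio of -0.13, which is less than the robust SD of 0.38 at this signal. Comp, cartilage oligomeric matrix protein, had 8.13 and 5.34 both under the floor, so no ratio is given.

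The cartilage, bone and tendon lists, whose tissues are rich in these proteins, were mostly near or under the floor. Of 7 cartilage genes 3 were measured and none was called 2-fold apart, with Col9a1 at -0.41, Col2a1 at 0.15 and Hapln1 at -0.06, and a median of -0.06. The other cartilage genes, Acan, Matn1, Matn3 and Snorc, were not above the floor. Of 5 bone genes 2 were measured, Alpl at -0.51 and Sp7 at -0.21 or lower, with a median of -0.36. Of 3 tendon genes 2 were measured, both as bounds, Scx at 0.62 or higher with signals of 16.4 and 36.9, and Mkx at 0.24 or higher, with a median of 0.43. Tnmd was not above the floor. In wild type and mutant the cartilage genes had summed signals of 295.6 and 271.4, and the bone genes 98.2 and 71.0. The tendon genes had 43.0 and 71.1. All of these sums hold signals under the floor. The wild-type tendon sum holds no others, with Scx at 16.4, Tnmd at 13.8 and Mkx at 12.8, so no difference is read from it. The part of tendon cells in the Thbs4 value was not tested.

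The SPARC proteins, calcium-binding glycoproteins that bind collagen, were bright and close on both arrays. On probe set 1416589_at, Sparc gave 4055 on the wild-type array and 3727 on the mutant array, a log2 ratio of -0.12. On 1448392_at it had 2540 and 3039, a log2 ratio of 0.26. The probe sets pointed opposite ways, so no direction is given for Sparc, and the difference between them shows how far probe sets of 1 RNA can part at high signal, where the robust SD was 0.13. A further Sparc probe set, 1458204_at, had 3.12 and 13.9 and was not above the floor. Sparcl1, a SPARC relative also called hevin, had 1258 and 1264 on its probe set, a log2 ratio of 0.01.

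Tenascin-C and periostin, matrix proteins of growing and remodelling tissue, were also within 1.5-fold. On probe set 1416342_at, Tnc gave 82.0 on the wild-type array and 103.3 on the mutant array, a log2 ratio of 0.33, less than the robust SD of 0.38 at this signal. Its other probe set, 1456344_at, had 5.85 and 0.77 and was not above the floor. Postn, a matrix protein of fibroblasts and a ligand of integrins, had 1342 and 1143, a log2 ratio of -0.23. Of all members above the floor on both arrays it had the lowest ratio, at a signal where the robust SD was 0.13.

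Counted by gene at the brightest measured probe set, 2 of the 8 measured members, Thbs1 and Thbs2, were at least 2-fold higher, and none was 2-fold lower. Among 12300 measured genes 0.846% were at least 2-fold higher and 0.537% at least 2-fold lower. Counted by probe set, 4 of 12 members were at least 2-fold higher, beside 0.753% of all measured probe sets, and none was 2-fold lower, beside 0.622%. Of those 4 probe sets, 3 belong to Thbs2, which the choice of members fixed. The median log2 ratio of the 8 genes was 0.17 with bounds at their value and 0.01 without Thbs2, beside 0.01 over all measured genes. Ratios above 0 were found for 5 of the 8 genes and for 51.4% of all measured genes, and 5 of the 8 lay within 1.5-fold, beside 93.3% of all measured genes.

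**Figure D2:**
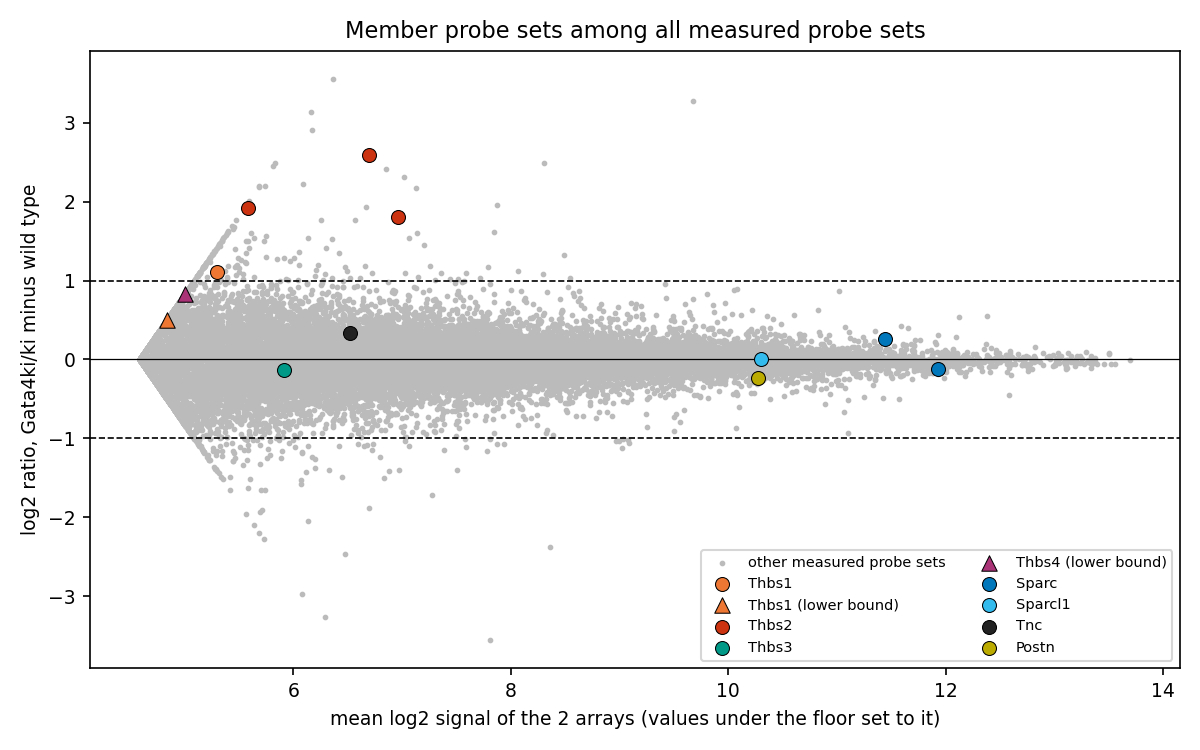
Log2 ratio of mutant minus wild type against the mean log2 signal for 21238 measured probe sets in grey, with the 12 measured member probe sets in colour, triangles for lower bounds and dashed lines at 2-fold. Thbs2 lies at 1.80, 1.92 and 2.59, while Sparc, Sparcl1 and Postn lie between -0.23 and 0.26 at high signal, where the cloud is narrow.

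Other matricellular genes, listed from general knowledge of these families, held none that was 2-fold apart. Of 18 genes on the list 12 were measured, 8 with a ratio above 0 and 4 below, with a median log2 ratio of 0.33. Fbln5, an elastic fibre protein, gave 214.1 and 361.0, a log2 ratio of 0.75. Ccn1, a target of mechanical and growth factor signals, had 95.8 and 155.5, a log2 ratio of 0.70, and its other probe sets gave 0.85 and 0.45. Ccn2, also known as connective tissue growth factor, had 127.2 and 189.9, a log2 ratio of 0.58. Spock2, a SPARC-related proteoglycan, had a log2 ratio of 0.58 with 35.4 and 52.8. All 4 had the higher signal in the mutant. The SPARC-related Smoc2 and Smoc1 went opposite ways, at 0.57 and -0.27. Tnn, Tnr, Tnxb, Ccn6, Spock1 and Spock3 were not above the floor. The other genes of the SIBLING family, the group of bone and tooth phosphoproteins to which Spp1 belongs, were under the floor for all 4 of 4, Ibsp, Dmp1, Mepe and Dspp.

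Among receptors of the members 1 of 17 measured genes was at least 2-fold higher and none was 2-fold lower. Over all measured genes these shares were 0.846% and 0.537%, and the median of the list was 0.06. Sdc4, a heparan sulfate proteoglycan that binds thrombospondin and tenascin, had 41.5 and 106.3, a log2 ratio of 1.36, but its other probe set gave -0.29. Itgb3, the integrin beta subunit shared by receptors of Thbs1, Spp1 and Postn and also made by platelets, had 40.3 and 75.9, a log2 ratio of 0.91. Cd36, the receptor of the type 1 repeats, had 44.6 and 76.9, a log2 ratio of 0.78. Cd47, another thrombospondin receptor, had 267.6 and 339.8, a log2 ratio of 0.34, and its other probe sets gave 0.38 and 0.16. Itgb1, the most widely shared integrin beta subunit, had -0.39, while its other probe sets gave 0.16 and -1.10 or lower, so its probe sets disagreed.

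The matrix partners and enzymes, and the genes of TGF-beta latency and response, held none that was 2-fold apart. Of 12 matrix genes 6 had a ratio above 0 and 6 below, with a median of 0.02. Mmp2, a protease that Thbs2 helps to clear through Lrp1, had 1463 and 1777, a log2 ratio of 0.28, and Lrp1 had 0.14. Mmp9, a related protease, had 45.4 and 25.6, a log2 ratio of -0.83, and Bmp1, a procollagen protease, had -0.51. Col1a1, a chain of type I collagen, had 0.38 where it was brightest and -0.17 on a dimmer probe set. Of 10 TGF-beta genes 8 were measured, 7 with a ratio above 0, and their median was 0.05. Skil, a feedback inhibitor, had 0.55, Tgfb3 0.50, Ltbp1, a latent TGF-beta binding protein, 0.41, and Ltbp3 -0.14. The other probe sets of Ltbp3 gave 0.17 and 0.40, so its probe sets disagreed.

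The gonad somatic, germ cell and mesonephric genes that were matched on the array lay above the floor on both arrays at their brightest probe sets. The mutant array was the higher by 2-fold or more for 4 of 7 measured erythroid and 4 of 8 measured trophoblast genes. The shares over all measured genes were 0.846% at least 2-fold higher and 0.537% at least 2-fold lower. Among gonad somatic genes Nr0b1 was at least 2-fold higher, with 112.5 and 239.6, and the median over 6 was 0.13. Gata4 itself had 240.8 and 286.2 on its brighter probe set and 49.2 and 34.6 on the other, and as a knock-in acting through the protein leaves the transcript to be read, they are no check of the genotype labels. Zfpm2, the gene of the cofactor FOG2, gave 530.2 and 784.0 on its brighter probe set, a log2 ratio of 0.56, and 133.4 and 262.1 on the other, a log2 ratio of 0.97. The medians of the germ cell and mesonephric lists were -0.21 over 5 genes, with Dnd1 at -0.71, and -0.17 over 6 of 8 genes, with Calb1 at -0.72, and no gene of either list was 2-fold apart. The macrophage list had 8 of 9 genes above 0 and a median of 0.65, with Ptprc at 0.92, Cd68 at 0.13, Cx3cr1 at -0.39 and none 2-fold apart, and its summed signal was 1356 for wild type against 2161 for the mutant. The higher erythroid genes were Hemgn, known as a bound, Klf1, Slc4a1, whose other probe set gave 0.95, and Alas2. The list median was 1.03. The globins Hbb-y, with 9198 and 8977, and Hba-x, with 3964 and 4840, did not reach 2-fold and made up most of the list's summed signals of 13361 and 14317, and Epor had a log2 ratio of 0.23. The trophoblast list had a median of 0.90 with bounds at their value and summed signals of 687.1 and 1486. Plac1, with 247.1 and 366.5, and Rhox6, with 398.9 and 493.8, made up most of these sums. They did not reach 2-fold and were the only genes of the list above the floor on both arrays. Prl2a1 was at 0.60 or higher and Hand1 at 0.04 or higher. Ctsj, a placental cathepsin, had 1.29 in wild type and 282.6 in the mutant, Prl2b1 0.64 and 131.9, Ctsq 0.81 and 77.7, and Prl7d1 3.20 and 54.8, all under the floor in wild type, while both signals of Tpbpa and of Ascl2 lay under the floor. These genes had already been seen high on this array when the list was written.

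Stromal, endothelial and smooth muscle cells are known sources of matricellular proteins, and none of their listed markers was 2-fold apart. The 8 stromal genes, among them Pdgfra, Dcn and Tcf21, had a median of 0.00 and summed signals of 15984 and 16463. Their range was -0.28 to 0.32 at the brightest probe sets. Their other measured probe sets ran from -0.92, for Nr2f2, to 0.46, for Pdgfra. Nr2f2 also had -0.64 on a bright probe set with 963.3 and 618.3. The 10 endothelial genes had a median of -0.18, with Sox17 at -0.66 and Sox18 at -0.57, 8 of them below 0, and summed signals of 2901 and 2508. Of 7 smooth muscle and pericyte genes 6 were measured, 2 with a ratio above 0 and 4 below, with a median of -0.01. The list's summed signals were 1643 and 2386, and Acta2 was the largest part of both sums. In that list Acta2, smooth muscle actin, had 795.0 and 1475, a log2 ratio of 0.89, Tagln 0.79 and Cspg4 -0.69, and Myh11 had 24.0 and 20.5, wild type being only just above the floor. Of 6 neural crest and Schwann genes 3 were measured, with Elavl4 at 0.28 or higher, Erbb3 at 0.20 and Tubb3 at -0.13 or lower, a median of 0.20 and summed signals of 205.5 and 238.0. The part of macrophages, blood cells, trophoblast or muscle cells in the Thbs2, Thbs1 and Thbs4 values was not tested. In such bulk RNA, more cells of a type and more RNA per cell cannot be told apart.

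**Figure D3:**
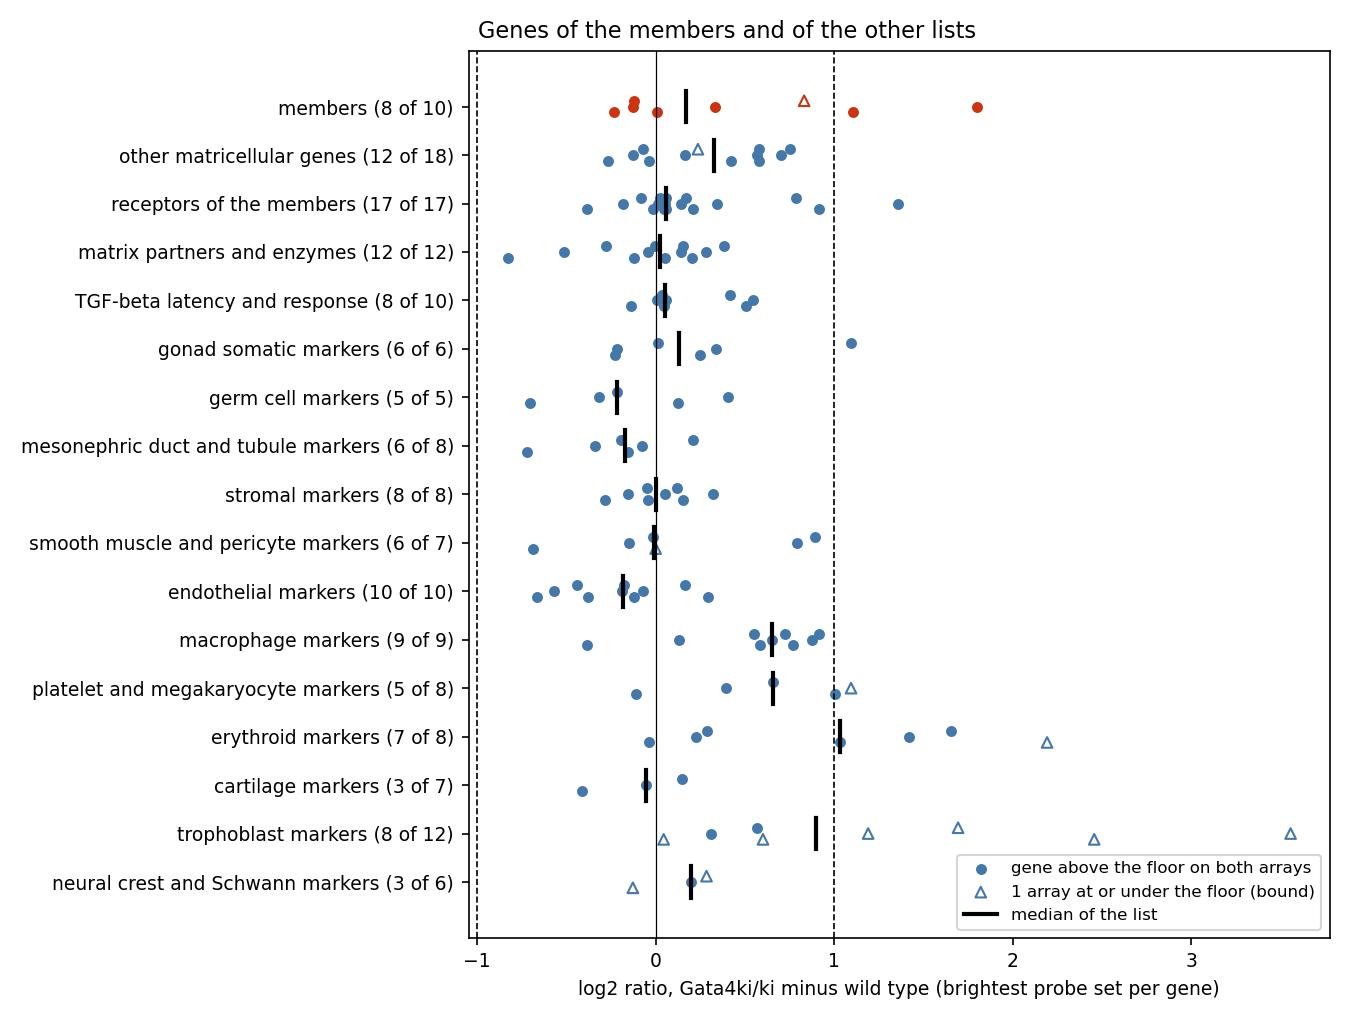
Log2 ratio of mutant minus wild type for each measured gene of the members, in red, and of the other lists with at least 3 measured genes, in blue, at the brightest probe set, with triangles for bounds and black bars for medians. Labels give how many of the listed genes were measured. The members' median lies at 0.17, the stromal median at 0.00, and those of the macrophage, platelet, trophoblast and erythroid lists between 0.65 and 1.03.

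**Figure D4:**
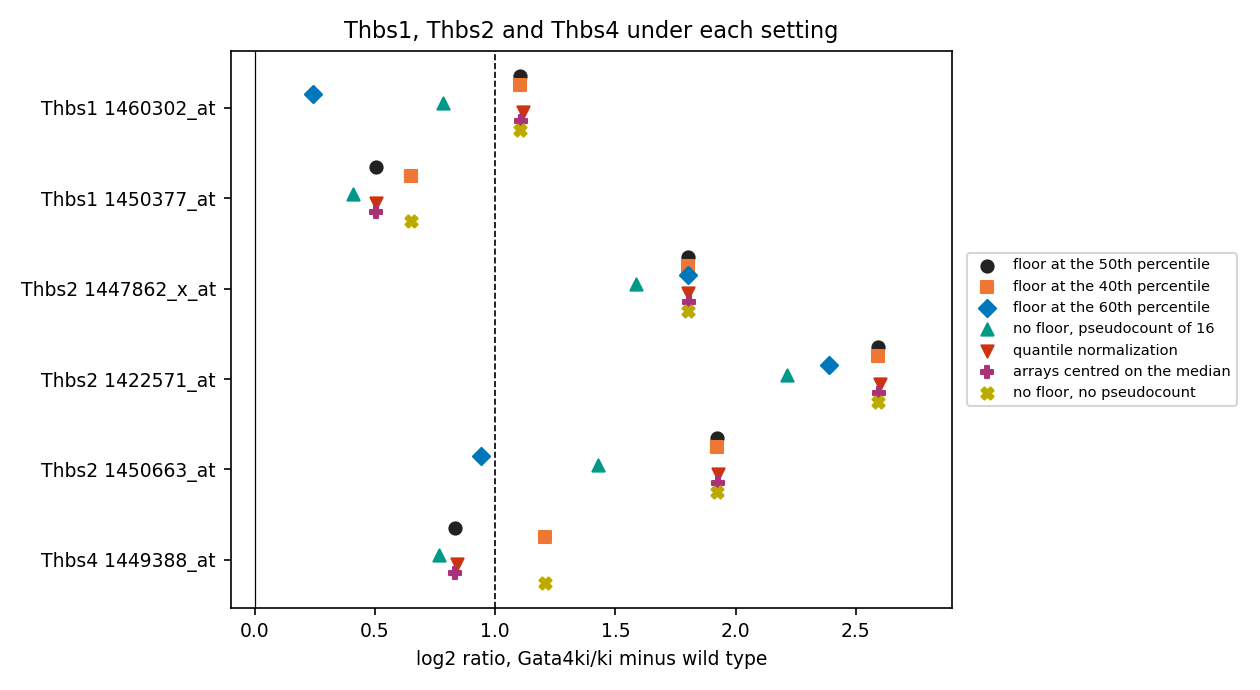
Log2 ratio of the Thbs1, Thbs2 and Thbs4 probe sets under each setting, 1 symbol per setting, with a dashed line at 2-fold; values at a floor are bounds. The ratio of Thbs2 1422571_at stays between 2.22 and 2.60, whereas Thbs1 1460302_at ranges from 0.24 to 1.11. Thbs4 ranges from 0.77 to 1.21 in the settings where it was measured. At the highest floor run, both signals of Thbs4 and of Thbs1 1450377_at lay under the floor, so neither has a ratio there.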

How the data were processed

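Total RNA from 6 pairs of gonad-mesonephros complexes per genotype was labelled with biotin and hybridised to 1 array per genotype, per the labels' protocols. The authors deposited linear signal intensity values, 1 per probe set, and the submitters' processing notes name MAS5; no source used here gives its version or a genome build. After trimming 2% of probe sets at either end, both arrays averaged 150.0, so each array carries its own scaling factor. Of 45101 probe sets, 34945 other than controls had 1 gene symbol in the platform annotation and 932 had several; gene numbers looked up in RefSeq (GRCm38.p6) changed 0 symbols.

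Values were used as deposited. Signals under the 50th percentile (24.0) were set to it, log2 ratios were taken as mutant minus wild type, and 2-fold differences were counted. A gene was read at its measured probe set of highest mean log2 signal. With 1 array per group there is no test, and the number of arrays limits the precision. The rule named all members, Gata4 and Zfpm2, and genes of each list that were 2-fold apart or otherwise up to 4 with the largest ratios; its last part, the 5 genes nearest to Thbs2 in signal, was not used, since levels of different probe sets are not comparable; any other name was picked with its values already seen. Members and lists were chosen with earlier results of these data known. The steps were tested on simulated data. Changes were planted there only in genes well above the floor, so dim probe sets were not covered. Alternatives were floors at the 40th and 60th percentile, a pseudocount of 16, quantile normalization, median centring, leaving out suffixed probe sets, and the median over a gene's probe sets. Python 3.11.15, numpy 2.4.6, pandas 2.3.3 and matplotlib 3.10.9 were used.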

Additional observations from a re-analysis of the deposited data

How the results depend on the processing

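The count of 2 member genes at least 2-fold higher became 1, Thbs2 alone, at a floor of the 60th percentile, under a pseudocount of 16 and when a gene was read as the median of its probe sets. It was 3, with Thbs4 added, with the floor at the 40th percentile and with no floor and no pseudocount, a setting chosen after seeing the data. The count of 4 member probe sets at least 2-fold higher became 2 with the floor at the 60th percentile. It was 3 to 5 in the other settings run. At that higher floor Thbs2 1450663_at and Thbs1 1460302_at are bounds at values under 2-fold, and Thbs2 1422571_at is a bound of 2.39 or higher. Thbs4 and Thbs1 1450377_at lay under it on both arrays and have no ratio there, which left 7 measured member genes. No member was 2-fold lower in any setting run. The members' median ranged from 0.01 to 0.20. Of 70 values of single probe sets under alternatives, 66 moved by less than the robust SD at their signal; the other 4 were those of Thbs1 1460302_at and Thbs2 1450663_at at the higher floor, and of Thbs2 1422571_at and 1450663_at with the pseudocount. Over all measured genes the 2-fold counts changed from 104 higher and 66 lower to 210 and 136 with the lower floor, 41 and 33 with the higher floor, and 269 and 181 with no floor and no pseudocount. No paired analysis was possible because each group has 1 array. Signal over background limits Comp, Thbs4 and the dim probe sets of Thbs1, Sparc and Tnc.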
